A study of Sus scrofa with 8 samples.

Results

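The genes described here make or handle epithelial mucus: the mucins MUC4, MUC13 and MUC20, the trefoil factors TFF2 and TFF3, the mucin-folding protein AGR2, and the goblet cell transcription factors SPDEF and CREB3L1. They were chosen by name, and each one's rows in the gene count table were summed. Of the 8 listed genes, 6 matched a gene name in the table, out of 30282 genes in all. MUC4 and MUC20 matched no name and were not analysed here. The RNA came from porcine pancreatic ductal organoids (PPDO), three-dimensional epithelial cultures grown from duct fragments picked out of the pancreas of wild-type or INS-eGFP reporter pigs. There were 4 lines: an embryonic line (Em), early postnatal lines EPN1 and EPN2, and a late postnatal line (LPN). Each line was kept for a week in complete medium (the control) or in differentiation medium, which gave 8 libraries and n = 4 per medium. The differentiation medium lacked the growth factors of the control (EGF, FGF10, WNT3a, R-spondin and noggin) as well as prostaglandin E2 and gastrin, while both media held the TGF-beta receptor inhibitor A83-01, the ROCK inhibitor Y-27632, nicotinamide, N-acetylcysteine, N2 and B27 without vitamin A. The embryonic and the late postnatal stage are each represented by 1 line, so stage and line cannot be told apart, and which lines carried the reporter is not given in the sources used here.

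Mucus is built in steps. Mucins are folded in the endoplasmic reticulum, where AGR2, a member of the protein disulfide isomerase family, is needed for the gel-forming intestinal mucin, and are then coated with sugar chains in the Golgi. Trefoil factors are small, disulfide-rich peptides that mucous cells secrete together with mucins: TFF1 and TFF2 are typical of gastric mucous cells and TFF3 of intestinal goblet cells. SPDEF, an ETS family factor, drives goblet cell maturation in the gut, and CREB3L1 is a membrane-bound bZIP factor that is cut loose in the Golgi and raises the capacity of the secretory pathway. MUC13 differs from the gel-forming mucins in that it stays anchored in the apical membrane.

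Levels are given as CPM, the counts of a gene relative to the library total, scaled with TMM factors, and the order of lines is Em, LPN, EPN1, EPN2 throughout. Library totals ran from 40553593 to 47910657 counts, so that 3 counts, the limit set by a count of 0, correspond to 0.0626 to 0.0740 CPM. Among the duct markers, KRT7 stood at 522 to 2837 CPM and EPCAM at 228 to 640 CPM. Others of that list were lower or less even. CFTR ran from 2.97 CPM in EPN2 in differentiation medium to 338 CPM in Em in complete medium. PDX1 stood at 9.58 to 73.9 CPM and KRT18 at 45.2 to 1398 CPM. Markers of other cells were low: the acinar list summed to at most 2.38 CPM, the endocrine list to at most 23.9 CPM and the stromal list to at most 9.55 CPM, and CPB1, PNLIP, PTF1A, CDH5 and CD3E did not exceed 3 counts in any library. The endothelial list summed to 36.4 to 86.7 CPM and the immune list to 1028 to 1846 CPM, of which the B cell gene CD79A alone held 1022 to 1804 CPM. On the immune list the leukocyte marker PTPRC reached at most 2.17 CPM, CSF1R 0.272 CPM and ITGAM 1.13 CPM, while CD68 stood at 3.24 to 49.8 CPM. Tuft markers summed to 126 to 173 CPM, of which AVIL alone held 92.2 to 169 CPM and POU2F3 4.48 to 32.6 CPM. Enterocyte markers summed to 49.0 to 392 CPM, of which VIL1 alone held 48.1 to 356 CPM. Of 7 basal and squamous markers 4 were found, KRT5 being the one basal keratin among them. KRT5 stood at 4.51, 4360, 306 and 7653 CPM in complete medium and at 79.4, 4812, 1431 and 11106 CPM in differentiation medium. The difference between lines did not pass the test for KRT5 (adjusted p = 0.0560 by edgeR), TP63 (0.111) or KRT4 (0.274). For the squamous marker IVL it did (adjusted p = 0.0426 by edgeR). IVL ran from 4.87 to 711 CPM in complete and from 2.51 to 905 CPM in differentiation medium, with EPN2 highest in each. In bulk RNA, fewer cells of a type and less RNA per cell cannot be told apart.

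The 6 genes did not share a direction between the media. AGR2 and CREB3L1 were lower in differentiation medium in 4 of 4 lines. TFF2, TFF3, MUC13 and SPDEF were higher in LPN and EPN1, while TFF3, MUC13 and SPDEF were lower in Em and EPN2. In the comparison of the media across all 14475 genes tested (edgeR quasi-likelihood test, Benjamini-Hochberg adjusted p under 0.05), none of the 6 was called, against 6.97% of all genes tested (1009 genes, 416 higher and 593 lower). Their unadjusted p was under 0.05 for 2 of the 6, as it was for 3954 of the 14475 genes tested. The unadjusted counts given for the lists below are to be read against that same background. DESeq2 with the medium alone also called none of the 6, against 19.9% of all genes. Each line had a library in either medium, so that line could be entered as a block. With it edgeR called 1 member, CREB3L1, against 19.9% of all genes, and DESeq2 called CREB3L1 and AGR2, against 37.3%. The median log2 fold change of the 6 was -0.39 without and -0.06 with the block, against 0.01 and -0.01 for all genes tested. In no member were the libraries of the media free of overlap, which held for 18.8% of all genes tested.

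The membrane mucin MUC13 (ENSSSCG00000011862; Sscrofa11.1 chr13:135416709-135446337, by RefSeq) stood at 889, 89.8, 228 and 365 CPM in complete medium and at 683, 240, 310 and 125 CPM in differentiation medium. Em had the most MUC13 in each medium, while EPN2 went from the second highest line in complete medium to the lowest in differentiation medium. EPN1 was above LPN in each medium. The means of 393 ± 349 and 339 ± 241 CPM (SD, n = 4) differed by far less than the spread between lines, with a log2 fold change of -0.21 (SE 0.73, edgeR adjusted p = 0.879, 0.988 with the block). Within lines, MUC13 was 2.67-fold higher in LPN and 1.36-fold higher in EPN1, and 1.3-fold lower in Em and 2.92-fold lower in EPN2.

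Of 17 other mucin, mucin-like and trefoil genes listed, 6 were found and 5 could be tested. The gastric and airway mucins MUC5AC, MUC5B and MUC6 and the membrane mucins MUC1 and MUC16 were among those not found by name and were not analysed here. None of the 5 was called by edgeR without the block (2 had an unadjusted p under 0.05, and DESeq2 called 2), and with it MUC15 and TFF1 rose. DESeq2 without the block and edgeR with it each called 19.9% of all genes tested. MUC2, the gel-forming mucin of intestinal goblet cells, was matched by its gene identifier and stood at 40.8, 0.244, 7.72 and 127 CPM in complete medium and at 7.14, 31.1, 10.8 and 47.0 CPM in differentiation medium. Like MUC13 and TFF3, MUC2 was higher in LPN and EPN1 and lower in Em and EPN2, and its log2 fold change was -0.87 (SE 1.33, adjusted p = 0.705 by edgeR). The LPN value in complete medium rested on 10 counts, against 1491 in differentiation medium. MUC15, another membrane mucin, had no count in Em and 0.975, 0.457 and 5.0 CPM in the other lines in complete medium, and 0.722, 29.4, 12.5 and 40.1 CPM in differentiation medium. It was higher in 4 of 4 lines, by at least 11.2-fold in Em against 3 counts, 30.1-fold in LPN, 27.4-fold in EPN1 and 8.03-fold in EPN2. The edgeR log2 fold change was 3.68 (SE 1.55, adjusted p = 0.173) and with the block 4.33 (SE 0.53, adjusted p = 0.0126), and DESeq2 gave an adjusted p of 0.0334 with the medium alone.

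The trefoil genes lie together on chromosome 13: RefSeq places TFF3 at chr13:205641038-205644333, TFF2 at chr13:205669014-205672319 and TFF1 at chr13:205687558-205691512 (Sscrofa11.1), with 24.7 kb between TFF3 and TFF2 and 15.2 kb between TFF2 and TFF1. TFF3 (ENSSSCG00000022857) stood at 124, 19.6, 22.6 and 578 CPM in complete medium and at 79.9, 132, 120 and 320 CPM in differentiation medium. EPN2 was highest in each medium, and LPN and EPN1, the lowest lines in complete medium, passed Em in differentiation medium. The range between the highest and the lowest line narrowed from 29.5-fold to 4.0-fold. Within lines, TFF3 was 6.71-fold higher in LPN and 5.31-fold higher in EPN1, and 1.55-fold lower in Em and 1.81-fold lower in EPN2. The means were 186 ± 266 and 163 ± 107 CPM (SD, n = 4), and the edgeR log2 fold change was -0.19 (SE 1.04, adjusted p = 0.926). With the block its sign turned, to 0.91 (SE 0.81, adjusted p = 0.442 by edgeR), so no direction can be given for TFF3 across lines.

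TFF2 (ENSSSCG00000024320) was scarce, with 16 to 200 counts per library. It stood at 0.867, 0.487, 0.385 and 4.34 CPM in complete medium and at 0.970, 4.18, 1.67 and 3.36 CPM in differentiation medium. As with TFF3, the higher values in differentiation medium were those of LPN (8.56-fold) and EPN1 (4.35-fold), while Em differed by 1.12-fold and EPN2 was 1.29-fold lower. Mean levels were 1.52 ± 1.89 and 2.55 ± 1.48 CPM (SD, n = 4), with a log2 fold change of 0.74 (SE 0.85, edgeR adjusted p = 0.606) and of 1.19 with the block (adjusted p = 0.252 by edgeR). Without the EPN2 library in complete medium the log2 fold change was 2.13 (adjusted p = 0.0816 by edgeR), and without both LPN libraries it was 0.10.

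TFF1 (ENSSSCG00000034731), matched by identifier, was the trefoil gene that was higher in 4 of 4 lines. It stood at 12.9, 0.292, 2.45 and 259 CPM in complete medium and at 294, 108, 160 and 647 CPM in differentiation medium. LPN had 12 counts in complete medium and 5161 in differentiation medium. The difference was 22.8-fold in Em, 368-fold in LPN, 65.3-fold in EPN1 and 2.49-fold in EPN2, the line that had most TFF1 in complete medium. Without the block the spread between lines was larger than the difference (2.14 on the log2 scale, SE 1.66, edgeR adjusted p = 0.437), and with it TFF1 rose by 4.99 on the log2 scale (SE 1.29, adjusted p = 0.0492 by edgeR). With the block and 1 line left out at a time, the adjusted p was 0.0171 without EPN2, 0.114 without Em, 0.131 without LPN and 0.179 without EPN1, all by edgeR. Beside TFF1, the gastric marker list held CLDN18, which rose with the block (adjusted p = 0.0131 by edgeR), and GKN1, GKN2 and ANXA10, which were too low to test: GKN2 had no count in complete medium and 0.124, 0.167, 1.65 and 0.490 CPM in differentiation medium.

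**Figure D1:**
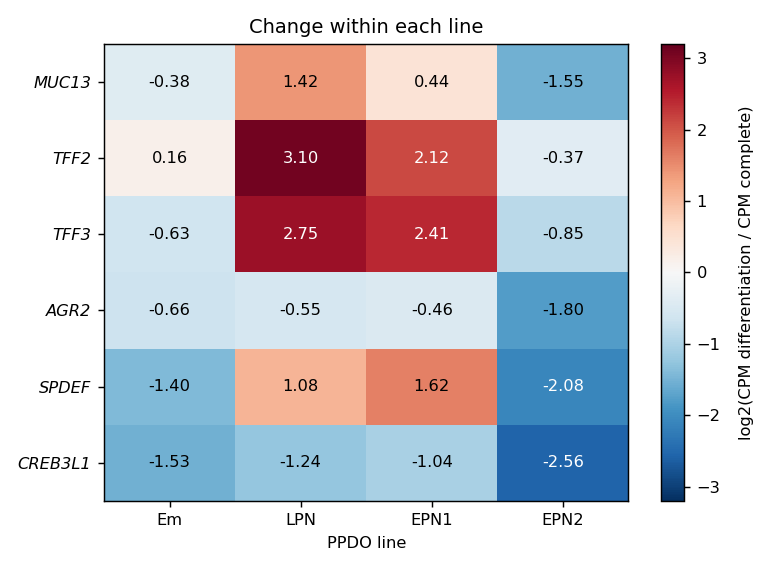
Heat map of the log2 ratio of CPM in differentiation over complete medium for the 6 genes (rows) in the 4 PPDO lines (columns), with the value printed in each cell. AGR2 and CREB3L1 are negative in every column, and the other 4 genes are positive in LPN and EPN1 and, apart from TFF2 in Em at 0.16, negative in Em and EPN2.

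AGR2 (ENSSSCG00000015363; chr9:86042070-86053893) stood at 249, 120, 199 and 278 CPM in complete medium and at 157, 82.0, 145 and 80.2 CPM in differentiation medium. It was lower in 4 of 4 lines, as were 24.2% of all genes tested, by 1.58-fold in Em, 1.46-fold in LPN, 1.38-fold in EPN1 and 3.47-fold in EPN2. EPN2 thus went from the highest to the lowest of the 4 lines. The means of 212 ± 69.2 and 116 ± 40.6 CPM (SD, n = 4) gave a log2 fold change of -0.87 (SE 0.33; edgeR adjusted p = 0.139) and of -0.86 with the block (SE 0.25, adjusted p = 0.0625 by edgeR). DESeq2 gave an adjusted p of 0.0766 without and of 0.00947 with the block. Without both EPN2 libraries the log2 fold change was -0.56 and the adjusted p was 0.328 without and 0.0313 with the block by edgeR.

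AGR2 belongs to a set of enzymes that form and shuffle disulfide bonds in the endoplasmic reticulum. Of 15 names listed with it, 13 were tested. The list also holds the stress sensors ERN1, which was not found, and ERN2, which was tested. They are not enzymes of this set. Of these, edgeR called 3, all lower in differentiation medium, against 6.97% of all genes tested. With the block it called 6, again all lower, against 19.9%. Values were lower in 4 of 4 lines for 9 of the 13, against 24.2% of all genes tested. The median log2 fold change was -0.55, and 3 of the 13 had a positive value, namely PDIA2, ERP44 and ERN2. ERO1A, the oxidase that recharges protein disulfide isomerase, fell the furthest, from 308, 258, 363 and 131 CPM to 63.8, 35.1, 49.2 and 45.2 CPM (-2.45 on the log2 scale, SE 0.33, edgeR adjusted p = 0.0123). P4HB, protein disulfide isomerase itself, fell from 1015, 987, 1484 and 687 CPM to 599, 360, 487 and 427 CPM, or by 1.16 on the log2 scale (SE 0.26, adjusted p = 0.0417 by edgeR). SELENOM, a selenoprotein of the endoplasmic reticulum measured at 15 to 107 counts, fell by 1.89 on the log2 scale (SE 0.41, adjusted p = 0.0383 by edgeR). In none of the 3 did the libraries of the media overlap, which held for 18.8% of all genes tested. PDIA5, PDIA6 and TXNDC12, further enzymes of the family, fell with the block, by 1.14, 0.83 and 0.51 on the log2 scale (adjusted p = 0.0184, 0.0151 and 0.0287 by edgeR). ERN2, the stress sensor of mucous epithelia, was higher in Em, LPN and EPN1 and lower in EPN2, at 27.5, 8.82, 16.8 and 102 CPM against 43.6, 32.9, 53.6 and 64.9 CPM (adjusted p = 0.787 by edgeR).

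By edgeR, P4HB and SELENOM each lost their call when any single library other than EPN2 in complete medium was left out (adjusted p up to 0.115). The call for ERO1A was lost without EPN1 in differentiation medium (adjusted p = 0.0541 by edgeR). It was also lost without both libraries of Em (0.0517), LPN (0.129) or EPN1 (0.151) and, with the block, without LPN (0.0633) or EPN1 (0.0687). Without both EPN1 libraries the adjusted p by edgeR was 0.235 for P4HB and 0.228 for SELENOM.

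SPDEF (ENSSSCG00000036573; chr7:30515925-30538095) stood at 25.9, 2.97, 1.64 and 1.09 CPM in complete medium and at 9.78, 6.28, 5.02 and 0.257 CPM in differentiation medium. Em was highest and EPN2 lowest in each medium, 23.9-fold apart in complete and 38.1-fold apart in differentiation medium, where EPN2 had 11 counts. SPDEF was 2.11-fold higher in LPN and 3.07-fold higher in EPN1, and 2.65-fold lower in Em and 4.22-fold lower in EPN2. Mean levels were 7.90 ± 12 and 5.34 ± 3.94 CPM (SD, n = 4), with a log2 fold change of -0.57 (SE 1.21, edgeR adjusted p = 0.796, 0.926 with the block). The sign rested on the Em library in complete medium, since without it the log2 fold change was 1.52 (adjusted p = 0.384 by edgeR).

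CREB3L1 (ENSSSCG00000013263; chr2:16186206-16220948) stood at 266, 43.8, 84.8 and 131 CPM in complete medium and at 92.1, 18.5, 41.1 and 22.1 CPM in differentiation medium. It was lower in 4 of 4 lines, by 2.89-fold in Em, 2.36-fold in LPN, 2.06-fold in EPN1 and 5.92-fold in EPN2. Em in differentiation medium still had more CREB3L1 than LPN and EPN1 in complete medium, so the media overlapped. The mean was 131 ± 96.6 in complete and 43.5 ± 33.9 CPM in differentiation medium (SD, n = 4). Without the block the log2 fold change was -1.60 (SE 0.68, adjusted p = 0.175 by edgeR, 0.0708 by DESeq2). Once line was accounted for, CREB3L1 fell by 1.59 on the log2 scale (SE 0.27, adjusted p = 0.0209 by edgeR, 1.67e-06 by DESeq2). With the block and without 1 line at a time, the adjusted p by edgeR was 0.0123 without EPN2, 0.0582 without Em, 0.0778 without EPN1 and 0.0851 without LPN, at log2 fold changes of -1.27 to -1.77. Of 7 proliferation markers, edgeR called 0 without the block (2 had an unadjusted p under 0.05, and DESeq2 called 0), and with it TOP2A, CDK1, CCNB1 and BIRC5 fell. Of all genes tested, edgeR called 19.9% with the block. MCM2 and MCM3 did not pass (adjusted p = 0.317 and 0.210 with the block by edgeR), and PCNA, at 93.2, 54.8, 53.0 and 69.9 CPM against 118, 59.0, 74.3 and 73.5 CPM, was higher in 4 of 4 lines (adjusted p = 0.152 with the block by edgeR). The list summed to 194 to 502 CPM in complete and 113 to 374 CPM in differentiation medium. The part of these genes in the AGR2 and CREB3L1 values was not tested.

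A further list of 16 names, mostly of COPII vesicle transport and cargo handling, covered genes of the kind that CREB3L1 and its relatives control. On it TANGO1 and MIA3 name the same gene, and S1PR1, SLC39A14 and COPZ2 lie outside COPII transport. Against 6.97% of all genes tested, edgeR called 2 of the 14 tested here, both lower. They were the inner coat subunits SEC23A, at 43.3 ± 3.87 against 24.3 ± 5.17 CPM (-0.83 on the log2 scale, SE 0.17, edgeR adjusted p = 0.0349), and SEC24D, at 72.9 ± 7.5 against 41.6 ± 9.64 CPM (SD, n = 4), or -0.81 on the log2 scale (SE 0.18, edgeR adjusted p = 0.0423). SEC23A lost its call by edgeR without any of the complete medium libraries of Em, LPN or EPN1 or the differentiation medium libraries of LPN or EPN1, and SEC24D without any of these or EPN2 in differentiation medium (adjusted p up to 0.119). With the block KDELR3, a receptor that returns proteins to the endoplasmic reticulum, was the third to fall (log2 fold change -1.35, adjusted p = 0.0232 by edgeR). Of all genes tested, 19.9% were called with it. The paralogues SEC23B, SEC24A and SEC24C had log2 fold changes of 0.01, -0.33 and -0.10, none of which passed the test, SEC24A was lower in 4 of 4 lines, and the median of the list was -0.12.

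Of 20 other transcription factors tied to goblet or gut epithelial cells, 16 were tested. Without the block edgeR and DESeq2 called none, and 0 had an unadjusted p under 0.05 by edgeR. With it XBP1, the factor that expands the endoplasmic reticulum, and CREB3L4, a relative of CREB3L1, fell by 0.50 (adjusted p = 0.0310 by edgeR) and 0.83 (adjusted p = 0.0472 by edgeR). These 2 of the 16 stand against 19.9% of all genes tested. ATOH1, which commits gut cells to the secretory lineage, had 8 counts in Em in differentiation medium and none in the other 7 libraries. The ETS factors EHF and ELF3, relatives of SPDEF, had mean levels of 676 ± 145 and 283 ± 131 CPM in complete medium and 934 ± 258 and 295 ± 71.3 CPM in differentiation medium (SD, n = 4). Neither passed the test (adjusted p = 0.256 for EHF and 0.931 for ELF3 by edgeR).

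The lines were then compared with each other. Adjusted for medium, none of the 6 genes differed between lines by edgeR (adjusted p = 0.0620 for CREB3L1, 0.124 for SPDEF and 0.187 to 0.287 for the others), against 5.14% of all genes tested. Of the 6, 2 had an unadjusted p under 0.05, and the share of all genes at that limit was not counted. The DESeq2 likelihood ratio test called 4 of the 6, against 31.5% of all genes: CREB3L1 (adjusted p = 1.09e-06), SPDEF (0.000483), TFF3 (0.0102) and MUC13 (0.0120). For CREB3L1, Em ranked first and LPN last in each medium. For AGR2, whose highest and lowest lines lay 2.32-fold apart in complete and 1.96-fold apart in differentiation medium, the spread between lines was the smallest of the 6. With 1 library per line and medium, whether the change with medium differs between lines could not be tested.

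Genes for secreted and granule proteins of goblet cells differed in which line had the most. CLCA1, a protease of goblet cell mucus, stood at 3.57, 0.317, 0.216 and 1590 CPM in complete medium and at 5.16, 33.5, 8.33 and 739 CPM in differentiation medium. SPINK4, a protease inhibitor made by goblet cells, stood at 6.87, 0.244, 4.18 and 193 CPM and at 8.05, 1.06, 2.67 and 27.7 CPM. EPN2 was thus the line with the most CLCA1, SPINK4, MUC2, TFF1 and TFF3 in each medium and with the least SPDEF. SYTL2, SYTL4, BCAS1, CAPN8, CAPN9 and GPA33 of the same list were also highest in EPN2 in each medium. Some others of the list ran differently. LYPD8 was lowest in EPN2 in each medium, but in complete medium this rested on 1 count against 4 in LPN. PIGR, at 98.04, 22.6, 46.9 and 165 CPM against 44.9, 113, 210 and 11.8 CPM, and FCGBP were lowest in EPN2 in differentiation medium, and REG4 was highest in Em in each medium. EPN2 was also the line with the most KRT5 in each medium, and the part of KRT5 expression in these values was not tested. The log2 fold change of CLCA1 with medium, -1.02 (SE 2.55, adjusted p = 0.827 by edgeR), turned to 2.38 with the block (adjusted p = 0.329 by edgeR). BCAS1, like CLCA1 among those with the highest mean CPM of the list, had 187 ± 151 and 133 ± 65.9 CPM (SD, n = 4; adjusted p = 0.629 by edgeR).

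Of the 20 genes on that list, 16 were found and 12 tested. Without the block edgeR called none, 3 had an unadjusted p under 0.05, and DESeq2 called 2, against 19.9% of all genes tested. With it SYTL2, CAPN8, CAPN9 and LYPD8 rose and SYTL4 fell by edgeR, also against 19.9% of all genes tested. SYTL2, which tethers secretory granules, was higher in 4 of 4 lines, at 7.86, 1.02, 7.81 and 87.1 CPM against 91.5, 29.0, 69.5 and 343 CPM (log2 fold change 3.31, adjusted p = 0.0156 with the block by edgeR). CAPN8 and CAPN9, calpains of gastric mucous cells, had log2 fold changes of 3.18 and 4.45 with the block (adjusted p = 0.0268 and 0.0377 by edgeR). In complete medium CAPN9 had 2 counts in LPN and 8 in EPN1. LYPD8, a surface protein of the colon, stood at 0.238, 0.0975, 0.794 and 0.0226 CPM against 75.1, 8.0, 43.1 and 0.327 CPM, with adjusted p = 0.0520 without and 0.0086 with the block by edgeR. Its values in complete medium rested on 11, 4, 33 and 1 counts. FCGBP, a large mucus protein that associates with MUC2, was higher in 4 of 4 lines, as were 23.9% of all genes tested, at 25.7, 3.07, 4.33 and 24.5 CPM against 170, 145, 261 and 37.9 CPM. Its media did not overlap, and its log2 fold change was 3.41 (SE 0.87, adjusted p = 0.0555 by edgeR, 0.0657 with the block, 0.000170 by DESeq2). REG4 and ITLN2 were too low to test, and RETNLB had no count.

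**Figure D2:**
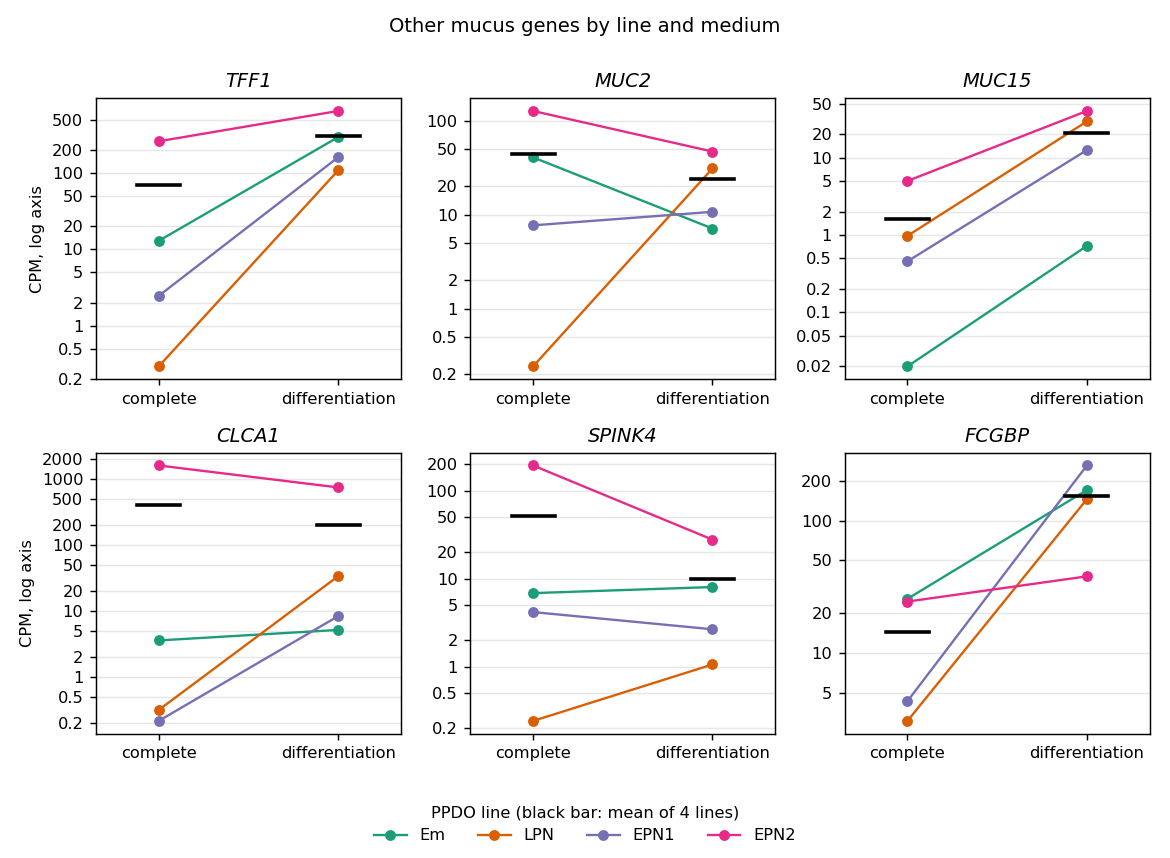
Level of TFF1, MUC2, MUC15, CLCA1, SPINK4 and FCGBP in the 8 libraries (CPM, log axis) by medium, with 1 colour per PPDO line and a black bar at the mean of 4 lines; MUC15 in Em in complete medium had no count and is drawn at 0.02 CPM. TFF1, MUC15 and FCGBP slope up in every line, and EPN2 lies on top for TFF1, MUC2, CLCA1 and SPINK4 in each medium.

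Of 29 listed enzymes that build mucin O-glycans, 22 were tested, and 10 of the 22 had a positive log2 fold change. Without the block edgeR called none, and 5 had an unadjusted p under 0.05. DESeq2 called 2 higher and 2 lower, against 19.9% of all genes tested. With the block 2 of the 22 rose and 3 fell by edgeR, also against 19.9% of all genes tested. B3GNT7, which extends keratan-type sugar chains, rose with the block by 3.39 on the log2 scale (adjusted p = 0.0076 by edgeR), with levels of 5.83, 0.634, 6.64 and 0.384 CPM against 81.2, 8.37, 43.1 and 4.13 CPM. GALNT14, one of the enzymes that attach the first sugar, also rose with the block (log2 fold change 4.53, adjusted p = 0.0217 by edgeR). In complete medium GALNT14 had 1 count each in LPN and EPN1. GCNT3, the branching enzyme of mucin glycans, was lower in 4 of 4 lines, at 81.0, 36.1, 37.9 and 66.2 CPM against 12.6, 10.2, 3.49 and 23.05 CPM. Its log2 fold change was -2.16 (adjusted p = 0.0543 by edgeR), and with the block it fell by 2.35 (adjusted p = 0.0167 by edgeR). GALNT6 and B4GALNT3 fell as well with the block, by 1.27 and 1.22 (adjusted p = 0.0287 and 0.0415 by edgeR). GALNT1 and B3GNT3, named for their high mean CPM in the list, had log2 fold changes of 0.18 (adjusted p = 0.556 by edgeR) and 0.07 (adjusted p = 0.942 by edgeR), and the latter was -0.04 with the block.

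Over the 6 lists together, 5 of 82 genes (6.10%) were called without the block, near the 6.97% of all genes, and 23 of 82 (28%) with it, against 19.9%. With the block and without both libraries of 1 line, that count by edgeR was 32 when EPN2 was left out, 16 when Em was, 1 when EPN1 was and 0 when LPN was.

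**Figure D3:**
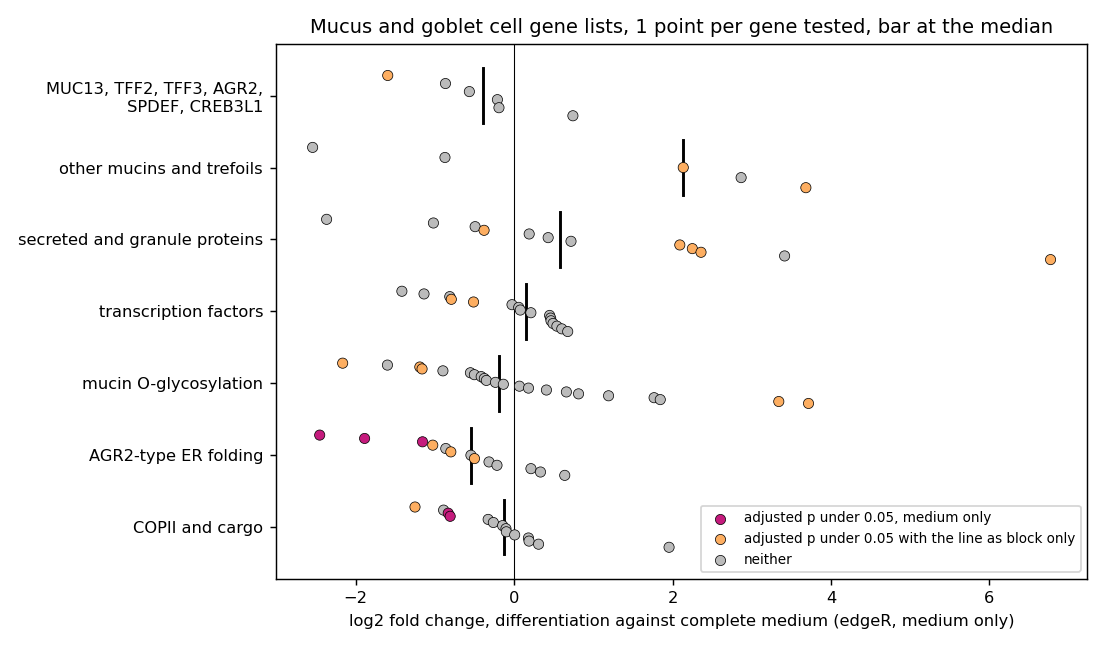
Strip plot of edgeR log2 fold changes (differentiation against complete medium, medium only) with 1 point per gene tested in the 6 genes and the 6 lists, and a black bar at each median. Magenta points passed an adjusted p of 0.05 without the block, orange points only with the line as block, and grey points neither; magenta points appear only among endoplasmic reticulum folding and COPII genes, all on the negative side.

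Over the 8 libraries, which share 4 lines, the levels of AGR2 and CREB3L1 ran closely together (Pearson r = 0.935 of log2(CPM + 0.1)), as did those of the neighbouring trefoil genes TFF2 and TFF3 (r = 0.886). TFF3 had r = 0.839 with TFF1 and 0.867 with MUC2, MUC13 had r = 0.720 with CREB3L1, and SPDEF had r = -0.327 with TFF2 and -0.264 with TFF3. Among all genes tested, those most like each gene were F3 (0.986) and SLC38A3 (0.973) for AGR2, RPN2 (0.985) and GUSB (0.973) for CREB3L1, and ST6GALNAC1 (0.972) and TNC (0.967) for TFF2. For TFF3 they were NENF (0.963) and CLCA2 (0.962), for SPDEF CYTB (0.992) and KIAA0319 (0.990), and for MUC13 CLGN (0.971) and ENSSSCG00000004404 (0.977), which has no symbol in the table. These are the highest values picked from all genes tested over only 8 libraries of 4 lines. How high such values run by chance was not tested. ST6GALNAC1, which adds sialic acid to mucin glycans, is also on the glycosylation list. It stood at 0.282, 0.0244, 0.0240 and 5.18 CPM in complete medium and at 0.165, 2.11, 0.430 and 1.54 CPM in differentiation medium, values that rest on 1 count each for LPN and EPN1 in complete medium.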

How the data were processed

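Poly(A) RNA from 4 PPDO lines in 2 media was sequenced by the authors. Reads were quantified by the authors with salmon (nf-core workflow) on a pig genome with a custom annotation, and the deposited values are estimated counts for each gene row. The submitters' processing notes name Sscrofa11.1. Whether the counts were scaled by gene length could not be read from the table, in which 78.6% of values above 0 are whole.

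Of 56060 rows, 8 are reporter transgenes with 0.00142% of counts and were left out. Rows of a gene were summed and rounded, which gave 30282 genes. The labels' titles give media and replicate numbers, while the table's header names media and lines, so libraries were named by line. The labels' treatment field gives all 8 samples the same medium, and the titles were followed. TFF1 and MUC2 were matched by identifier through a table of gene names, and positions were taken from RefSeq (Sscrofa11.1).

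Media were compared with edgeR 4.0.16 (R 4.3.3; filterByExpr, TMM, quasi-likelihood F-test), with Benjamini-Hochberg adjustment over 14475 genes, and SE was taken as the log2 fold change over the root of F. Because the same line was grown in both media, a fit with line as the replicate block was added: deviations from the medium means correlated at 0.400 to 0.658 within the 4 same-line pairs and at -0.479 to 0.242 in the 12 other pairs. DESeq2 1.42.0, other size factors, no filter, rows with -ext left out, and each library or line left out were the alternatives. The comparison of media without the block was checked on simulated counts that held no differences between lines. The comparison of lines was checked on counts with a cap on their dispersion and a shift in EPN2. The comparison of media with the block was not checked in this way. Without the block, p-values for the media are set against the spread between these lines. With the block, differences in level between lines are taken out. Those p-values are set against how unevenly the change with medium ran across these lines. The limit used for a library without counts covers counting error only.

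The genes and lists were chosen with earlier results of these data known. From each list, the genes past the threshold were named or, where there were none, the 2 most abundant. Likewise named were the 2 genes most like each of the 6, while the other list genes were named after their values were seen.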

Additional observations from a re-analysis of the deposited data

Results flagged for a closer look

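In 11 of the 76 groups of 4 libraries examined (38 genes in 2 media), the highest library stood far from the other 3. Chance flags about 1 in 20 independent groups, but these genes share libraries, many were named after their values were seen, and CPM are skewed, so the 11 cannot be set against that rate. Among the 6 genes these were TFF2 in complete medium, where EPN2 had 4.34 CPM, and SPDEF in complete medium, where Em had 25.9 CPM. EPN2 also stood apart in complete medium for TFF1 (259 CPM), CLCA1 (1590 CPM), SPINK4 (193 CPM), SYTL2 (87.1 CPM), CAPN8 (30.3 CPM), CAPN9 (15.2 CPM) and GALNT6 (259 CPM). In differentiation medium EPN2 stood apart for CLCA1 (739 CPM) and GALNT6 (119 CPM). EPN2 was the highest library in 10 of the 11 groups. Each of these values is that of 1 library, and the genes share it.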

How the results depend on the processing

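For the 6 genes, 107 of 132 alternative log2 fold changes kept their sign and their side of the threshold, 5 passed it newly (AGR2 and CREB3L1) and 20 changed sign, for MUC13, TFF3 and SPDEF, none of which was called. The cause was not tested. With the replicate block (line), TFF3 went to 0.91, CLCA1 to 2.38 and B3GNT3 to -0.041 by edgeR. With the block in DESeq2, MUC13 went to 0.00695, TFF3 to 0.94, MUC2 to 0.00126, CLCA1 to 2.86 and B3GNT3 to -0.022. Leaving out 1 library or 1 line, also with the block, gave log2 fold changes from -0.80 to 0.60 for MUC13, -0.75 to 1.59 for TFF3, -1.03 to 1.52 for SPDEF, -1.44 to 1.13 for MUC2, -4.67 to 7.16 for CLCA1, -0.83 to 0.22 for BCAS1, -0.13 to 0.43 for ELF3, -0.47 to 0.59 for B3GNT3 and -3.70 to 1.39 for SPINK4. Of the 6 genes, 0 were called between media without the block, 1 with it and 2 with it in DESeq2, and 0 to 2 when libraries or lines were left out, 2 of them without EPN2 and with the block. Of 82 other list genes, 5 were called, against 23 with the block, 15 by DESeq2, 35 by DESeq2 with the block, 1 with no filter and 0 to 32 on leaving out libraries or lines. Between lines, 0 of the 6 were called, against 4 by the DESeq2 likelihood ratio test, 1 with no filter and 0 to 1 on leaving out a line (1 without EPN2). Rows without a suffix gave no value, since every row of the 6 genes carries one. TFF2 (16 to 200 counts) and SPDEF in EPN2 (48 and 11 counts) rest on few counts. The alternatives using rows with -ext left out and the block without a line were chosen after seeing the data.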
